A study of Mus musculus with 36 samples.

Results

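In cultured mouse cortical neurons, 554 of the 115270 transcripts measured by RNA-seq were low after 6 h of potassium chloride (KCl) and not low after 1 h. They were chosen on their measured values, as CPM (a transcript's estimated count divided by its library's total and scaled to a fixed total), in wild-type (WT) neurons. A member had a mean of at least 5 CPM in the control kept silent for 7 h. Its mean after 6 h of KCl was at most 0.25 of that control, and its highest library after 6 h of KCl lay below the lowest control library. Its mean after 1 h of KCl was more than 0.67 of the mean at rest. Of the 23289 transcripts that reached 5 CPM in the 7 h control, 1118 met the limit of 0.25. Among those, 793 also had no overlap, and the limit at 1 h removed 239 of the 793. The 23289 transcripts are the set that the members are compared with below.

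The neurons came from E16.5 embryos and were kept for 7 days in culture. The 24 RNA libraries fall into 5 groups. WT cultures with 6 h of KCl also had 7 h in tetrodotoxin (TTX) and APV (n = 3), and their control had 7 h in TTX and APV alone (n = 4). WT cultures with 1 h of KCl also had 2 h in TTX and APV (n = 5). Actl6b-/- (KO) cultures at rest (n = 7) and WT cultures at rest (n = 5) had 2 h in TTX and APV alone. Every group therefore carried the blockers, and no KO culture with KCl was analysed here. Each library's title has a code, such as 3-7, that recurs across the WT groups. The labels do not say what the code marks, and it is read here as the culture.

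TTX blocks voltage-gated sodium channels and APV blocks NMDA receptors, so together they silence spiking and much of the synaptic calcium entry. Raised KCl depolarises the membrane, opens voltage-gated calcium channels and starts a programme of transcription. Early response genes, many of them transcription factors, are known to act first, and a later programme follows that includes both induced and reduced genes. ACTL6B, an actin-related protein made in neurons, is part of the BAF complex, which remodels chromatin.

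The files do not pair transcript identifiers with genes, and 0 of the 115270 identifiers matched the gene tables used here. Members are therefore described by transcript length and level, and no gene name, function, sequence or genome position is given. Only the transcripts ENSMUST00000197246.1, of 3988 bases, and ENSMUST00000027380.11, of 2928 bases, are given by identifier, chosen after their values were seen. The neuronal identity of the cultures was not checked against marker genes, and the KO label was not checked against Actl6b. The series describes the cultures as biological replicates. In RNA from whole cultures, fewer cells of a type and less RNA per cell cannot be told apart. A transcript's estimated count also depends on how reads were divided among transcripts with shared sequence.

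Library totals were 3627450 to 4051922 estimated counts after 6 h of KCl and 3569516 to 4020984 in the 7 h control. They were 6902985 to 8015063 after 1 h of KCl, 6135380 to 7480901 in KO at rest and 5873349 to 7578714 in WT at rest. The 6 h and 7 h libraries were thus shallower than all others, and depth cannot be told apart from the time in culture medium with blockers. Scaling by TMM, which assumes that most transcripts do not change, moves every ratio of 6 h KCl to 7 h control by 0.21 on the log2 scale relative to CPM. It moves ratios of the 7 h control to WT rest by -0.49, and ratios of 6 h KCl to WT rest by -0.28. With TMM-scaled CPM the same limits find 324 transcripts, 321 of them among the 554.

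The members together made up 1423 ± 151 CPM after 6 h of KCl (SD, n = 3), against 8715 ± 455 CPM in the 7 h control (SD, n = 4). After 1 h of KCl they summed to 5773 ± 94.9 CPM (SD, n = 5), against 5486 ± 234 CPM in WT at rest (SD, n = 5). In KO at rest they summed to 5181 ± 356 CPM (SD, n = 7). The rule fixes the fall at 6 h and the absence of a large fall at 1 h. It sets no direct limit on the resting level relative to the 6 h KCl and the 7 h control libraries. Within each library, the median member stood at -1.59, -1.64 and -1.45 on the log2 scale, relative to its WT resting mean, in the 3 libraries with 6 h of KCl. It stood at 0.84, 0.84, 0.88 and 1.04 in the 4 libraries of the 7 h control. In the 1 h KCl libraries it lay between -0.10 and 0.03, and in the KO libraries between -0.19 and 0.07. The choice of low 6 h KCl and high 7 h control values favours this order, so it is a description. The median ratio of 6 h KCl to rest was 0.296 in members, against 1.10 in the 23289 transcripts, and that of the 7 h control to rest was 2.01, against 1.34. With TMM-scaled CPM the members' median ratio to rest was 0.241 after 6 h of KCl and 1.43 in the 7 h control.

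**Figure D1:**
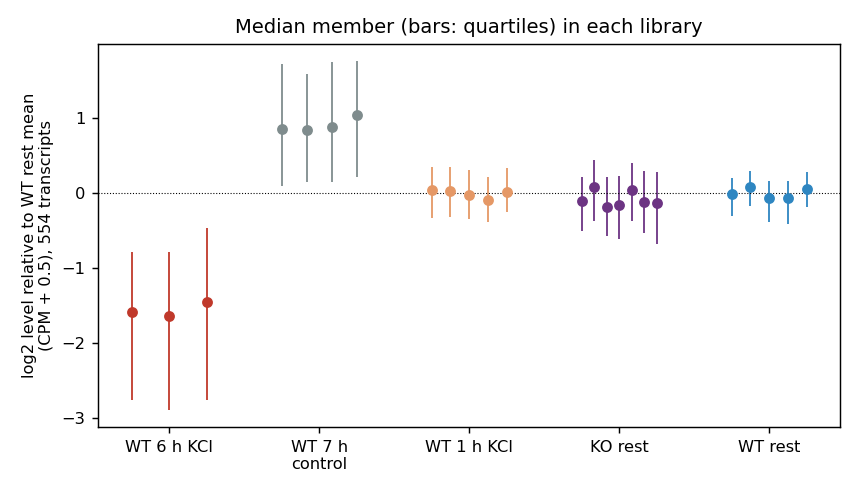
Level of the 554 members in each of the 24 libraries as log2 of CPM + 0.5 relative to the WT resting mean, with points for the median member and bars for the quartiles. The 3 libraries with 6 h of KCl sit between -1.64 and -1.45 and the 4 libraries of the 7 h control between 0.84 and 1.04, while the 1 h KCl, KO and WT resting libraries sit near 0.

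The fall differed widely in size among members. The median ratio of 6 h KCl to 7 h control was 0.169, with quartiles of 0.105 and 0.214. Just inside the limit, the 5 nearest members had ratios of 0.2486 to 0.25, and just outside it the 5 nearest transcripts that met every other condition had ratios of 0.2502 to 0.2514. A transcript of 3949 bases just inside had 4.87, 8.84 and 0 CPM after 6 h of KCl, against 22.9, 20.8, 18.0 and 11.8 CPM in the 7 h control. One of 6693 bases just outside had 5.91, 4.49 and 10.3 CPM after 6 h of KCl, against 31.1, 23.4, 26.3 and 29.1 CPM in the 7 h control. Both kinds stand side by side at the limit, and the second is the tighter between libraries.

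In edgeR's quasi-likelihood test of the contrast that the rule used, 340 of the 549 members tested were lower after 6 h of KCl than in the 7 h control at an adjusted p under 0.05. Over all 33196 transcripts tested, 6.88% were lower. With the culture code as a replicate block, 68 members passed the threshold, all 68 among the 340, against 0.609% of all transcripts. The 6 h response minus that at 1 h was below 0 at the same threshold in 309 of 554 members, beside 4.02% of all transcripts. These counts follow from the rule and describe only how many members also have a small spread between libraries.

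The 12 members with the highest levels in the 7 h control had means of 65.6 to 130 CPM there. One of them, ENSMUST00000197246.1 had 16.4, 17.7 and 21.1 CPM after 6 h of KCl, against 107, 89.8, 92.6 and 92.8 CPM in the 7 h control. It had 13.1, 13.2, 10.8, 11.2 and 14.2 CPM after 1 h of KCl, against 9.93, 12, 9.21, 9.69 and 14.6 CPM in WT at rest. Only the 4 libraries of the 7 h control were high, at 8.62 times the resting mean. In CPM the libraries with 6 h of KCl all lay above the highest resting WT library, narrowly, at 16.4 CPM or more against 14.6 CPM. TMM scaling moves ratios of 6 h KCl to WT rest by -0.28 on the log2 scale, which is more than the gap between 14.6 and 16.4 CPM. The separation therefore holds for CPM only, and single libraries were not read with TMM scaling. For this transcript the level after 6 h of KCl was 1.66 times that at rest in CPM and 1.37 times with TMM scaling.

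A transcript of 3051 bases had the same form, with 18.5, 14.7 and 20.2 CPM after 6 h of KCl, against 71.0, 70.6, 64.6 and 86.2 CPM in the 7 h control. At rest WT libraries averaged 23.2 ± 4.78 CPM (SD, n = 5), and the resting and 6 h KCl libraries overlapped while the 7 h control stood apart. One of 6891 bases lay between the extremes. It had 20.2, 14.8 and 21.5 CPM after 6 h of KCl, against 88.3, 66.4, 74.4 and 111 CPM in the 7 h control, with 47.9 to 59.0 CPM in WT at rest. For it, all 3 groups were separate, with rest in the middle.

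ENSMUST00000027380.11 showed the other form. It had 6.30, 6.50 and 8.63 CPM after 6 h of KCl, against 54.4, 64.7, 49.3 and 57.1 CPM in the 7 h control. After 1 h of KCl it had 54.1, 51.4, 54.2, 56.3 and 57.8 CPM, against 59.3, 73.5, 60.9, 51.2 and 61.5 CPM in WT at rest. The 3 libraries with 6 h of KCl were low and every library of the other groups, KO included, held 27.6 CPM or more. The 7 h control stood at 0.920 of the resting mean. A transcript of 3143 bases was alike, with 3.43, 3.67 and 2.37 CPM after 6 h of KCl, against 29.5, 26.4, 27.2 and 31.1 CPM in the 7 h control. Its WT resting libraries held 29.4 to 40.4 CPM, and its 1 h KCl libraries 25.9 to 32.8 CPM.

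A transcript of 4773 bases also fell below every other group. It had 7.43, 8.21 and 11.4 CPM after 6 h of KCl, against 37.6, 42.3, 46.8 and 56.9 CPM in the 7 h control, with 43.2 to 64.9 CPM in WT at rest. The longest of the 12 members highest in the 7 h control, of 16813 bases, by contrast varied widely within every condition. It had 3.91, 12.3 and 13.9 CPM after 6 h of KCl, against 174, 73.4, 29.6 and 17.1 CPM in the 7 h control, and 2.60 to 52.7 CPM in WT at rest. Its groups at 6 h and 7 h did not overlap, but the lowest control library lay close to the highest KCl library. The member with the highest control mean, of 6217 bases, varied too, with 46.8, 11.8 and 3.46 CPM after 6 h of KCl, against 74.4, 134, 181 and 129 CPM in the 7 h control. Its WT resting libraries ran from 0 to 96.5 CPM. The next highest, of 7605 bases, was steady except after 6 h of KCl, with 3.31, 29.4 and 34.7 CPM, against 93.2, 106, 112 and 112 CPM in the 7 h control and 72.2 to 88.9 CPM in WT at rest.

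**Figure D2:**
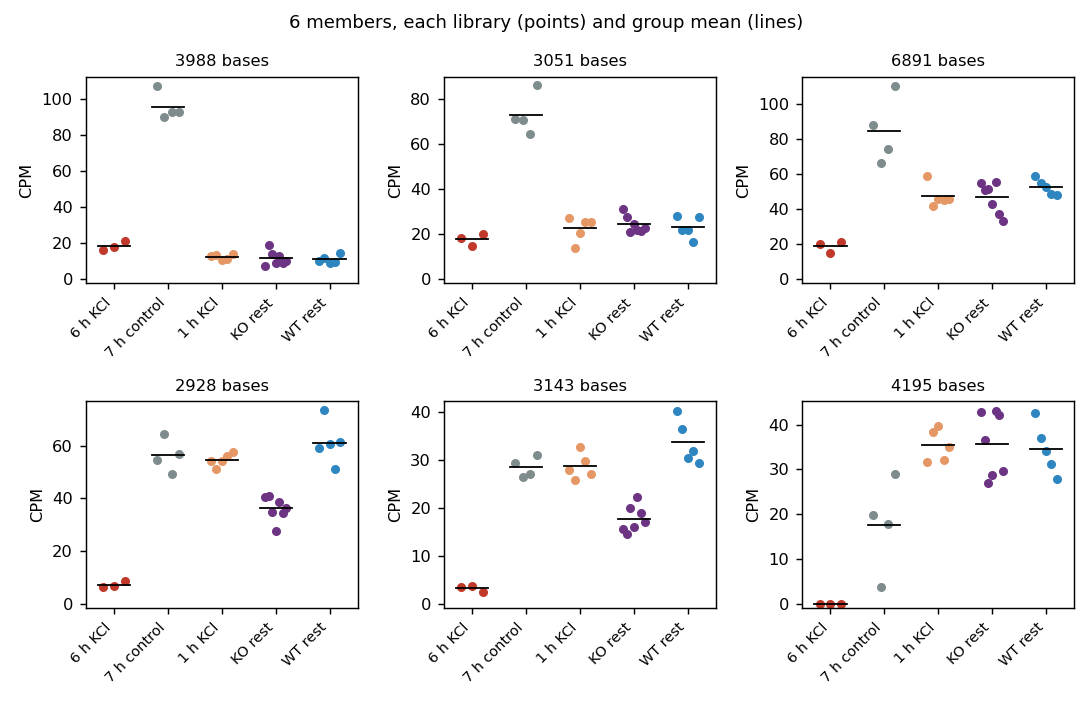
CPM (linear axes) of 6 members, named by length in bases and chosen after their values were seen, in every library of the WT 6 h KCl, WT 7 h control, WT 1 h KCl, KO rest and WT rest groups, with lines for group means. In the transcripts of 3988 and 3051 bases only the 7 h control stands high, in those of 2928 and 3143 bases the 6 h KCl libraries stand low and the KO libraries lie below WT rest, and the transcript of 4195 bases is at 0 in all 3 libraries with 6 h of KCl.

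Members differed in where the 7 h control lay relative to rest. The 7 h control was at least 2 times the WT resting mean in 278 members (50.2%), against 37.6% of the 23289 transcripts. It was between 0.67 and 1.5 times rest in 166 members (30.0%), against 33.7%, and at most 0.5 of rest in 13 members (2.35%), against 9.70%. With TMM-scaled CPM, 185 members in place of 278 were at least 2 times rest. In edgeR's test of 7 h against 2 h of blockers, 200 of the 553 members tested were higher at 7 h and 56 lower, beside 28.3% and 25.7% of all transcripts tested. With library totals in place of TMM, 287 were higher and 22 lower, beside 36.2% and 16.6% of all transcripts. Both groups enter the rule, so these are descriptions.

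The position of the 6 h KCl libraries relative to rest followed from that split. In the 166 members whose 7 h control was near rest, the median level was 1.80 CPM after 6 h of KCl and 10.9 CPM in the 7 h control, with 10.6 CPM both after 1 h of KCl and in WT at rest. Their median ratio of 6 h KCl to rest was 0.172. In the 122 members whose 7 h control was over 4 times rest, the median level was 1.32 CPM after 6 h of KCl, against 7.91 CPM in the 7 h control and 1.17 CPM in WT at rest. Of these 122 members, 68 had a mean after 6 h of KCl at or above the resting mean. The rule's limit on the 6 h KCl level allows this only where the 7 h control is at least 4 times rest. That no member of any other class reached rest therefore follows from the rule. The 68 made up 12.3% of all members, against 53.7% of the 23289 transcripts. The rule requires a low 6 h KCl level, so this share is a description. With TMM-scaled CPM, 55 members were at or above rest.

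Over all members, 6 h of KCl left 398 (71.8%) at no more than 0.5 of the resting mean, against 17.8% of the 23289 transcripts. In 308 members (55.6%) every library with 6 h of KCl lay below every resting WT library, against 25.0%. In 215 members (38.8%) they lay below every one of the other 21 libraries, KO included, against 6.72%. With TMM-scaled CPM the last pair of counts was 342 and 236 members. The rule does not compare 6 h KCl with rest directly, but it requires a low 6 h KCl level, so these shares are descriptions.

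**Figure D3:**
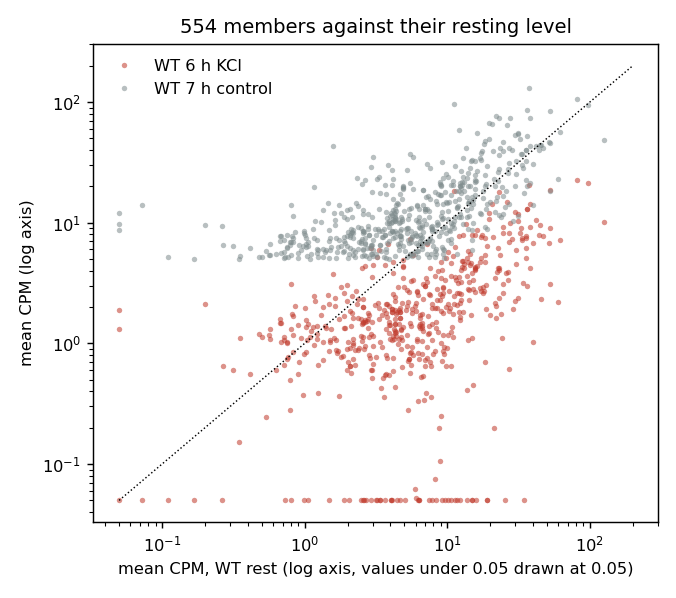
Mean CPM of each of the 554 members after 6 h of KCl and in the 7 h control (log axis) against its mean in WT at rest (log axis), with a dotted line at equal levels and values under 0.05 CPM drawn at 0.05. Most 6 h KCl points lie below the line, and the 7 h control points have a lower edge at 5 CPM, the minimum that the rule sets, which places members of low resting level above the line.

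Among members expressed well at rest, a transcript of 5428 bases was the highest, with a WT resting mean of 126 CPM. It had 6.92, 0 and 23.6 CPM after 6 h of KCl, against 39.9, 43.6, 36.9 and 74.1 CPM in the 7 h control. Its libraries held 101 to 161 CPM after 1 h of KCl, and 109 to 144 CPM in WT at rest. A transcript of 4472 bases followed the same order, with 4.58, 4.78 and 0 CPM after 6 h of KCl, against 24.2, 14.4, 12.7 and 21.5 CPM in the 7 h control. It had 47.3 to 60.3 CPM after 1 h of KCl, and 42.5 to 57.0 CPM in WT at rest. These belong to the 31 members whose 7 h control was under 0.67 of rest, so both long treatments lay below rest, the KCl libraries further below.

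Levels between transcripts can be compared only per length, as TPM (which divides by effective length before scaling). On that scale the highest member in the 7 h control had 701 bases, with a mean of 11.8 TPM after 6 h of KCl, against 56.3 TPM in the 7 h control and 45.7 TPM in WT at rest. The next had 665 bases, with 13.2 TPM after 6 h of KCl, against 55.3 TPM in the 7 h control and 15.4 TPM in WT at rest. Members were slightly longer than the 23289 transcripts, with a median length of 3333 bases, against 3114 bases, and they ran from 475 to 16813 bases. Of the 554 members, 66 share their length with another member.

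No estimated count reached 0.5 in any library with 6 h of KCl for 48 members (8.66%), against 0.580% of the 23289 transcripts. A fold for these is a lower bound, set against 3 counts over the 6 h KCl group, or 0.262 CPM, and covers counting error only. The 12 with the highest control levels were at least 45.4-fold to 105-fold lower. A transcript of 4195 bases was at 0 in all 3 libraries with 6 h of KCl, against 19.8, 3.66, 17.7 and 29.0 CPM in the 7 h control, at least 66.9-fold lower. Its WT resting libraries held 27.8 to 42.5 CPM, its KO libraries 26.9 to 43.0 CPM with a median of 36.4 CPM, and its 1 h KCl libraries 31.7 to 39.8 CPM, all above 0. A transcript of 2222 bases was likewise at 0 after 6 h of KCl, against 7.14 to 26.1 CPM in the 7 h control, at least 54.1-fold lower, with 8.61 to 26.4 CPM in WT at rest.

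Other members at 0 after 6 h of KCl varied widely within the 7 h control or at rest. The transcript of 9037 bases, with the largest bound, had 0.0676, 36.0, 35.1 and 38.9 CPM in the 7 h control. In WT at rest 4 of its 5 libraries held at most 0.100 CPM and 1 held 20.4 CPM. One of 5651 bases had 0.290, 0.0632, 51.0 and 37.3 CPM in the 7 h control. Values of under 1 CPM and over 30 CPM thus stood side by side within 1 group, and the rule's condition on overlap was met by values that round to 0 counts on both sides. At least 1 library at 0 occurred in 268 members (48.4%) after 6 h of KCl, against 8.31% of the 23289 transcripts. In the 7 h control this occurred in 11 members (1.99%), against 6.09%. The rule asks for 6 h KCl libraries below the control libraries, so this contrast is a description. At rest, where the libraries are deeper, it occurred in 123 members in KO (22.2%), against 9.54%, and in 97 in WT (17.5%), against 7.50%. The groups also differ in their number of libraries, which bears on these counts. In 39 members (7.04%) at least 1 resting WT library was at 0 while another held 5 CPM or more, against 4.46% of the 23289 transcripts. Whether reads were moved between transcripts of the same gene in such libraries was not tested.

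The lowest ratio among members with a count in every library with 6 h of KCl belonged to a transcript of 10071 bases, which is also among the 12 highest in the 7 h control. It had 1.13, 2.94 and 2.04 CPM after 6 h of KCl, against 62.8, 68.0, 90.5 and 86.5 CPM in the 7 h control, a ratio of 0.0264. It had 126, 67.0, 147, 144 and 80.4 CPM after 1 h of KCl, against 60.5, 4.73, 1.96, 11.3 and 31.3 CPM in WT at rest. The 5 libraries with 1 h of KCl all lay above the highest resting WT library, while the KO libraries ranged from 0.00603 to 136 CPM with a median of 76.3 CPM. In edgeR's test of 1 h of KCl against rest this transcript did not pass the threshold (adjusted p = 0.123).

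The rule also used the 1 h libraries, so their values are a description. The median ratio of 1 h KCl to rest was 0.999 in members, against 0.985 in the 23289 transcripts, and 89 members (16.1%) lay under 0.8, against 22.9%. At least 1.5 times rest was reached by 54 members (9.75%), against 7.22%. With the added condition that the 1 h KCl and resting libraries did not overlap, it was reached by 8 members (1.44%), against 2.31%. In edgeR's test 3 of the 487 members tested were higher after 1 h of KCl, beside 2.54% of all transcripts tested, and 0 were lower, beside 2.00%. With the culture as a replicate block 1 was higher, beside 1.38% of all transcripts. The rule removed low values at 1 h, so the count of lower members is not a result. Of the 3, the transcript of 7388 bases had 46.2, 40.1, 45.2, 36.1 and 47.9 CPM after 1 h of KCl, against 27.8, 37.5, 32.3, 26.6 and 33.7 CPM in WT at rest. After 6 h of KCl it had 5.27, 12.8 and 13.1 CPM, against 58.1, 47.5, 60.0 and 54.5 CPM in the 7 h control, so it was on opposite sides of its controls at the 2 times. The other two, of 5517 and 3705 bases, likewise had means above rest after 1 h of KCl and below the 7 h control after 6 h.

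The fall was read again in libraries that the choice had not used. The rule was applied without 1 of the 3 libraries with 6 h of KCl, and the level of the transcripts it found was then read in that library against the mean of the 7 h control. Without culture 3-7 the rule found 704 transcripts, and their median ratio in its library was 0.234, against 0.771 for the 23289 transcripts. Without 4-2 it found 653 with a median ratio of 0.220, against 0.825, and without 4-4 it found 818 with 0.288, against 0.876. In the library left out, 52.4%, 57.1% and 42.4% of the transcripts found were at or under 0.25, against 9.03%, 8.98% and 7.33% of the 23289. The left-out library lay below all 4 control libraries for 81.8%, 83.5% and 82.3% of them, against 46.8%, 42.6% and 38.0%. The ratio was therefore less extreme in a library not used, with most transcripts still below every control library. The control libraries were used in both the choice and the reading.

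The rule was also applied without 1 library of the 7 h control, while the 6 h KCl mean read was the one that the rule had chosen to be low. It then found 602 to 694 transcripts, and against the left-out control library the median ratio of their 6 h KCl mean was 0.168 to 0.205. At or under 0.25 were 61.2% to 71.6% of them, against 4.57% to 5.42% of the 23289 transcripts.

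On the values that the rule used, and so as a description, cultures with both treatments could be read one by one. At or under 0.25 of their own 7 h control were 421 members in 3-7 (76.0%), against 8.35% of the 23289 transcripts. In 4-2 they were 457 (82.5%), against 8.97%, and in 4-4 they were 411 (74.2%), against 7.79%. In all 3 cultures 236 members were at or under 0.25, a count for which no share of the 23289 transcripts was computed. The spread between libraries with 6 h of KCl was wide, with a median coefficient of variation of 0.735 in members, against 0.227 in the 23289 transcripts. In the 7 h control it was 0.256 in members, against 0.203. The median level after 6 h of KCl was 1.59 CPM in members, against 12.2 CPM, so the spreads there are not compared at like level. How much of the members' spread is counting error was not tested.

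**Figure D4:**
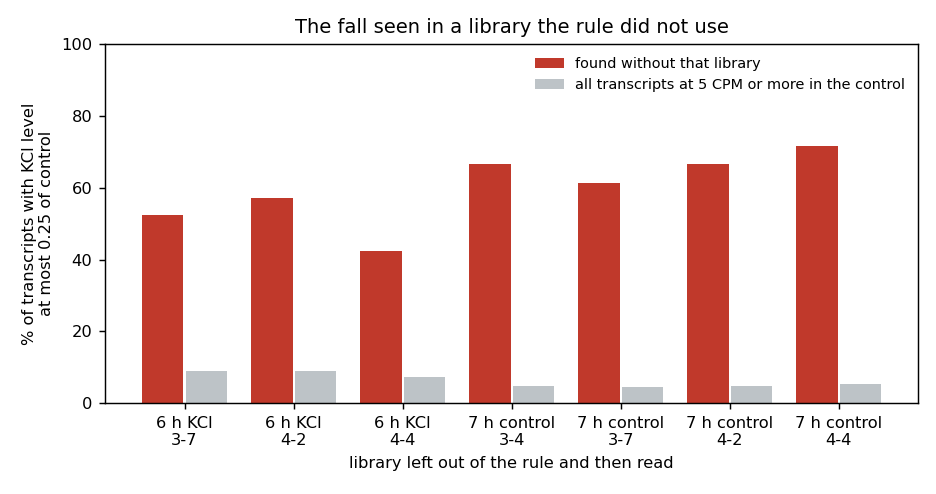
Percent of transcripts whose 6 h KCl level was at most 0.25 of the 7 h control when the named library was left out of the rule and then read, for transcripts found without it (red) and for all transcripts at 5 CPM or more in the 7 h control (grey). The red bars stand at 42.4% to 57.1% for left-out 6 h KCl libraries and at 61.2% to 71.6% for left-out control libraries, and the grey bars stay under 10%. For the left-out control libraries, the 6 h KCl mean read is the one that the rule chose to be low. Those bars are therefore not a reading of the fall in unused 6 h KCl values.

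The comparison of KO with WT at rest asks whether loss of Actl6b changes these transcripts in silenced neurons. The KO libraries take no part in the rule, and the resting WT libraries enter it only as the denominator of the ratio at 1 h. In edgeR's quasi-likelihood test over 32904 transcripts, 14 of the 489 members tested (2.86%) passed an adjusted p under 0.05, against 2.94% of all transcripts. Of the 14, 4 were higher in KO, against 1.30% of all transcripts, and 10 were lower, against 1.63%. The members were thus called about as often as transcripts in general. The median log2 fold change of the members tested was -0.07, against 0.01 for all transcripts, and 65 members did not pass the filter on low counts. The KO and WT libraries did not overlap for 18 of the 489 members (3.68%), against 3.74% of all transcripts. DESeq2 called 24 members, beside 4.56% of all transcripts. The number called depended on single libraries. It was 9 without KO 3-3, beside 2.00% of all transcripts, and 9 without WT 3-4, beside 1.48%. It was 9 without WT 3-7, beside 1.52%, and 8 without WT 4-2, beside 1.28%. It was 9 without WT 4-3, beside 2.12%, and 7 without WT 4-4, beside 1.39%. The share of all transcripts called was thus also lower in each of these fits than the 2.94% with all libraries.

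Of the 14, 6 passed under every one of the 19 alternatives tried, 5 of them lower in KO. The transcript of 10354 bases had 9.66 to 13.6 CPM in KO with a median of 11.3 CPM, against 19.0, 26.5, 27.0, 24.6 and 25.4 CPM in WT. All 7 KO libraries were below all 5 WT libraries, and the log2 fold change was -1.10 ± 0.13 (SE, adjusted p = 0.00102, edgeR). The transcript of 7090 bases had 12.2 to 22.1 CPM in KO with a median of 17.9 CPM, against 40.5, 46.5, 34.7, 28.2 and 39.6 CPM in WT, again without overlap. Its log2 fold change was -1.20 ± 0.163 (SE, adjusted p = 0.00278, edgeR).

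ENSMUST00000027380.11, described above as low after 6 h of KCl and near rest in the 7 h control, was also lower in KO. It had 27.6 to 41.0 CPM in KO with a median of 36.2 CPM, against 59.3, 73.5, 60.9, 51.2 and 61.5 CPM in WT at rest. The 7 KO libraries lay below the WT libraries, and the log2 fold change was -0.75 ± 0.108 (SE, adjusted p = 0.00404, edgeR). The KO mean was 36.2 ± 4.63 CPM (SD, n = 7), well above the 7.14 ± 1.29 CPM of WT neurons after 6 h of KCl (SD, n = 3), a pair of groups that differ in treatment time and were not tested against each other.

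The transcript of 3143 bases had 14.5 to 22.4 CPM in KO with a median of 17.1 CPM, against 40.4, 36.5, 30.6, 32.0 and 29.4 CPM in WT, with a log2 fold change of -0.92 ± 0.126 (SE, adjusted p = 0.00288, edgeR). One of 3666 bases averaged 10.3 ± 1.73 CPM in KO (SD, n = 7) and 17.2 ± 2.36 CPM in WT (SD, n = 5), with a log2 fold change of -0.73 ± 0.135 (SE, adjusted p = 0.0133, edgeR). The genotypes did not overlap for either.

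The one member higher in KO under every alternative, of 1805 bases, had 7.69 to 16.3 CPM in KO with a median of 11.2 CPM, against 3.58, 4.92, 3.09, 6.07 and 5.44 CPM in WT at rest. All 7 KO libraries were above the 5 WT libraries, with a log2 fold change of 1.34 ± 0.215 (SE, adjusted p = 0.00669, edgeR). Its WT level after 6 h of KCl was 1.90 ± 0.825 CPM (SD, n = 3), against 9.90 ± 2.53 CPM in the 7 h control (SD, n = 4).

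The other 8 called members were lost under at least 1 alternative, with adjusted p between 0.0133 and 0.0492 in the edgeR test. They comprised 3 that were higher in KO, of 4869, 4741 and 5642 bases, with log2 fold changes of 0.57, 1.10 and 0.62. The 5 lower in KO had log2 fold changes of -0.81 to -0.47. Within codes that start with 3 and within codes that start with 4, the sets that hold both genotypes, each of the 14 had the sign of its overall difference. The 14 were called on these same libraries, so this is a description. What the first number of a code marks is not given in the labels.

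**Figure D5:**
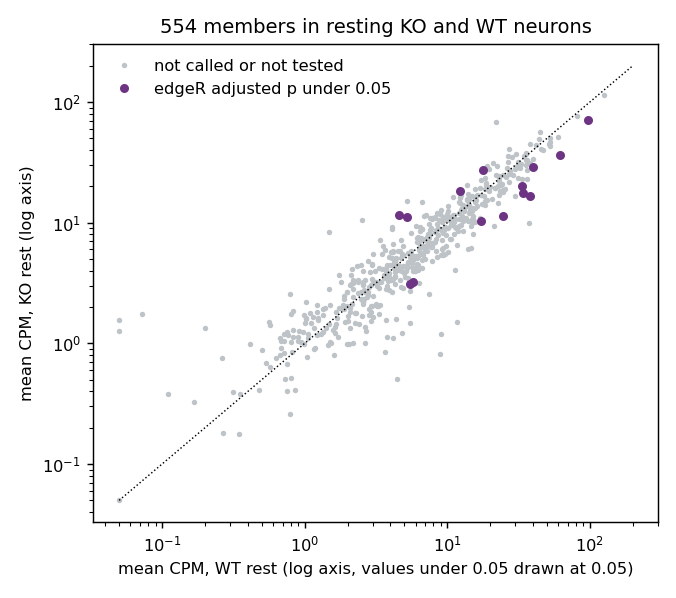
Mean CPM of each of the 554 members in KO at rest against WT at rest (log axes), with a dotted line at equal levels, values under 0.05 CPM drawn at 0.05, and the 14 members called in edgeR's test in purple. Most members lie along the line, and of the 14 called, 10 lie below it and 4 above it.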

How the data were processed

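RNA was total RNA made into stranded libraries, per the labels' protocols. The deposited RNA files give estimated counts, TPM, length and effective length per transcript, per the file headers. The submitters' processing notes name kallisto 0.44.0, Trim Galore and DESeq2 among the tools, with no step given for any of them. The ATAC-seq files were not used here.

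CPM was computed as the deposited estimated count over the library's sum. The counts, rounded to whole numbers, went into edgeR 4.0.16 (R 4.3.3). TMM scaling, a filterByExpr filter by group and the robust form of its quasi-likelihood F-test were used. Each fit held the groups compared, and p-values were Benjamini-Hochberg adjusted over all transcripts tested, with a threshold of 0.05. A standard error is the log2 fold change over the square root of F. The fit of KO against WT at rest was tested on simulated data, and the other fits were not. DESeq2 1.42.0, other scalings, filters and limits, and leaving out each library were alternatives. Library totals set the precision of single values.

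The members and the lists were chosen with earlier results of these data known. Contrasts that the rule used are given as descriptions. The members described singly were taken from the 12 highest in the 7 h control, the 12 with the lowest ratio, up to 10 called in KO, and the 5 nearest the limit on each side. Other members in the text, the one lowest with a count in every 6 h KCl library included, were chosen after their values were seen. The tests and lists planned per gene could not be applied, since the files do not pair transcripts with genes.

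The 5 codes of the WT libraries are as many as the WT replicates in the series' design text, and libraries with one code were taken as one culture. Deviations of same-coded libraries from their group means correlated at 0.0398 to 0.0977 for 6 h KCl and the 7 h control. They correlated at -0.0237 to 0.0909 for 1 h KCl and rest, and at -0.0204 to 0.0589 for the 7 h control and rest. These values are low and none for unlike codes is given beside them. They therefore do not show whether a code marks one culture.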

Additional observations from a re-analysis of the deposited data

Results flagged for a closer look

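In 136 groups of 4 to 7 libraries, 11 had 1 library far from the others by Dixon's criterion, and chance flags about 1 in 20 groups. The summed level of the members was 5940 CPM in WT 1 h KCl 4-4, against 5707 to 5750 CPM in the others. The transcript of 6891 bases had 58.8 CPM in WT 1 h KCl 3-4, with 41.8 to 45.8 CPM in the others. The one of 16813 bases had 146 CPM in WT 1 h KCl 4-3, with 4.19 to 42.5 CPM in the others, and the one of 9658 bases had 86.0 CPM in the 7 h control 4-2, with 56.7 to 60.5 CPM in the others.

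Among members at 0 after 6 h of KCl, the transcript of 9037 bases had 0.0676 CPM in the 7 h control 3-4 and 20.4 CPM in WT at rest 4-4. The one of 3313 bases had 3.54 CPM in KO 3-3 and was at 0 in the other KO libraries. The one of 6281 bases had 9.48 CPM in WT 1 h KCl 4-3, 12.1 CPM in KO 3-5 and 0.364 CPM in WT at rest 4-4, each the highest of its group. Of the members called in KO, the one of 3570 bases had 30.1 CPM in WT at rest 4-2, with 33.8 to 34.6 CPM in the others.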

How the results depend on the processing

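The number of members moved most with the limits. It was 1037, 284 and 126 with a control minimum of 2, 10 and 20 CPM. With a late limit of 0.33, 0.2 and a still stricter one it was 969, 362 and 179. A limit at 1 h of 0.5, 0.8 and 0.9 of rest gave 642, 465 and 380 members. Without the condition on overlap there were 787. TMM-scaled CPM gave 324 members, 321 of them shared. TPM in place of CPM, with the minimum of 5 then read in TPM, gave 484, of which 250 were shared. The members' median in the 7 h control was 4.94 TPM, so many of them fell below that minimum alone. The replicate block, which asked for 0.25 within each of 3 cultures, gave 236. Leaving out 1 library gave 542 to 818. The paired fit with the culture code as replicate block gave 68 members past the threshold at 6 h in place of 340, and 1 at 1 h in place of 3. Members at least 2 times rest in the 7 h control numbered 185 with TMM-scaled CPM in place of 278. In KO against WT, DESeq2 called 24 members, the 14 included, beside 4.56% of all transcripts. Without the filter on low counts 6 were called, beside 0.520% of all transcripts. Leaving out 1 library gave 7 to 16, beside 1.28% to 3.02%. Of the 10 members called in KO with the smallest adjusted p, none changed sign under these alternatives. With TMM-scaled CPM 55 members in place of 68 were at or above rest after 6 h of KCl. A replicate block in KO against WT was not run, since the genotypes share no code, and sums per gene were not run. The causes were not tested. The 6 h KCl and 7 h control libraries are the shallowest, which limits values near 0.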
